A study of Tribolium castaneum with 17 samples.

Results

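Embryos of the red flour beetle *Tribolium castaneum* collected at 6-11 hr were compared with the ovary, the tissue in which the egg and its first store of RNA are made. The comparison used 6 of the 17 poly(A) RNA libraries of the study, the 3 embryo (6-11 hr) libraries S4 to S6 and the 3 ovary libraries S13 to S15, chosen by their sample labels, and every gene row of the deposited table, 12302 gene models in all. All beetles were of the wild-type strain GA2, and no transgene or drug is named for any group. Each embryo library was a pool of 80 to 100 embryos laid by adults that were older than the dissected beetles, and each ovary library was a pool of ovaries from 30 virgin females at 4 days after eclosion. Libraries of 0-5 hr embryos (S1 to S3), testis (S16 and S17) and adult bodies with the gonads removed, called carcasses (female, S7 to S9, and male, S10 to S12), entered the model and are given as levels beside the results. Each sample was collected within a single day and RNA was extracted from all samples together, so the day of collection and the sample cannot be told apart. The age of the mothers and the virgin state of the dissected females likewise cannot be told apart from the difference between embryo and ovary.

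In insects the ovary holds oocytes, nurse cells that make RNA and protein and pass them into the oocyte, and follicle cells that cover the oocyte and secrete the egg shell. The egg begins development on this maternal RNA. The embryo then starts to transcribe its own genome, the zygotic genome, while many maternal transcripts are degraded. A transcript that is higher in 6-11 hr embryos than in ovary is therefore a candidate for zygotic transcription or for selective retention in the egg, and one that is lower can belong to ovarian cells that do not enter the egg or to a maternal transcript that has been cleared. The comparison alone does not separate these.

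The 6 libraries held 20221563 (S6) to 34847471 (S14) reads in gene models, and 1 read was worth 0.0217 (S14) to 0.0465 (S6) CPM, reads scaled to a common library size, so values near these are single reads. Embryo library S6 stood apart from S4 and S5. Its Euclidean distance over log2 CPM was 59.9 to S4 and 62.6 to S5, against 18.1 between S4 and S5, and it was 52.0 to 59.6 from the 3 libraries of 0-5 hr embryos. Ovary libraries were 47.1 to 56.8 from each other and 155 to 195.2 from the 6-11 hr libraries. In ovary library S15, 8 gene models that were not called took 6.86% of the library, against 0.155% in S13 and 0.158% in S14. Genes rich in the carcass were used as markers of adult body tissue, being 278 genes at least 16-fold higher in female carcass than in both 0-5 hr embryos and testis. Their summed level was 3534, 3771 and 1038 CPM in S4, S5 and S6 and 15057, 28646 and 26189 CPM in S13, S14 and S15, that is 0.317 to 1.15% and 4.59 to 8.74% of the mean in female carcass. None of the 278 was at 0 in every library of either group. The rule set no limit on the ovary level, so genes expressed by ovary cells can be among them. TC030701, which met the rule, stood at 3268, 3376 and 5001 CPM in S13, S14 and S15.

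More genes were lower in 6-11 hr embryos than in ovary than were higher. Of 12152 genes with 5 CPM or more in at least 3 of the 17 libraries, 1441 were higher in the embryo (11.9%), 3407 were lower (28%) and so 39.9% differed in either direction. A gene was called by limma where its log2 change reached 1 and its p, adjusted by the Benjamini-Hochberg method, was under 0.01. Changes are differences of log2(CPM + 1), which understates the change of genes near 1 CPM. The falls were also larger than the rises. The median change was 1.26 among the higher genes and -1.98 among the lower genes, where the median of all genes tested was -0.11. A change of 2 or more was seen for 91 higher and 1665 lower genes, 13 genes rose by 3 or more, and 230 fell by 4 or more. In bulk libraries, fewer cells of a type and less RNA per cell cannot be told apart, and this holds for every gene below.

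Lower genes were 70.3% of the 4848 calls. With reads scaled by library totals alone, that share was 86.2%, with 643 higher and 4028 lower genes, and the median of all genes moved from -0.11 to -0.38. With RLE factors it was 62.9%, with 1908 higher and 3237 lower genes, and the median was -0.01. The share was 63.5% with the filter on low values applied to the 6 libraries compared, 64.0% with 5 added to each CPM and 66.4% with DESeq2. All 3 embryo libraries stood above all 3 ovary libraries in 1440 of the 1441 higher genes, and all 3 ovary libraries stood above the embryo libraries in 3403 of the 3407 lower genes. Over all genes tested, 38.9% and 43.6% were separated in this way. For 4201 genes, 34.6% of those tested, the 95% interval of the change lay within 1 log2 unit on either side of 0. A further 3103 genes that were not called had intervals reaching beyond 1 log2 unit, so a change of that size was not settled for them.

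**Figure D1:**
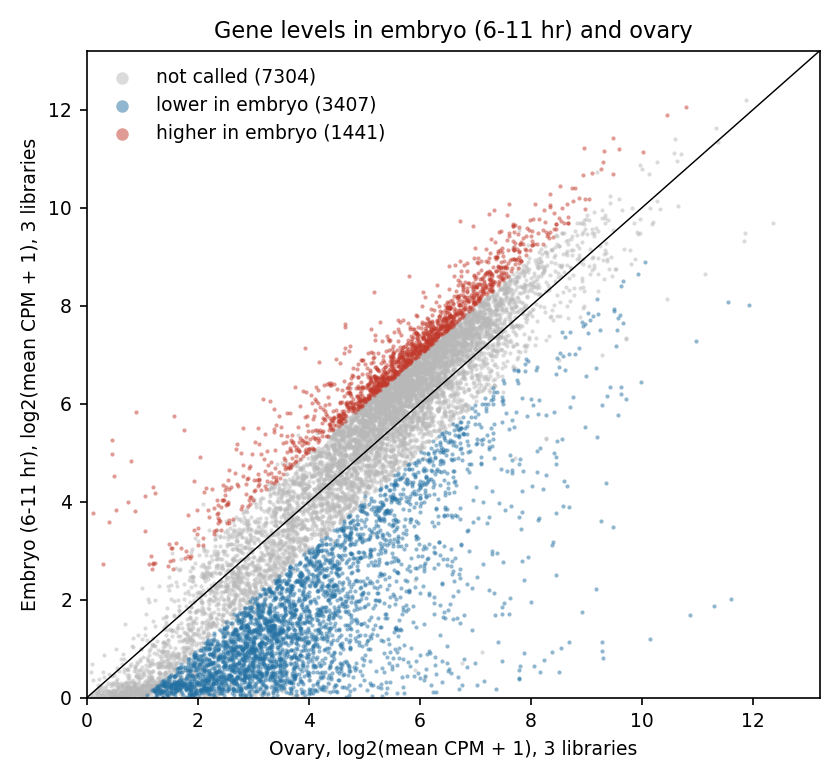
Mean level of each of the 12152 genes tested, as log2(mean CPM + 1), in the 3 ovary libraries (horizontal axis) and in the 3 embryo (6-11 hr) libraries (vertical axis); the line marks equal levels and colours mark the limma calls. The 1441 higher genes (red) lie in a band close to the line with few points at low ovary levels, whereas the 3407 lower genes (blue) spread down to the floor of the embryo axis.

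The balance of the libraries differed along with the calls. The higher genes, which were chosen by this contrast, made up 32.1, 31.7 and 34.0% of all CPM in S4, S5 and S6 and 15.6, 15.6 and 14.4% in S13, S14 and S15. The lower genes made up 3.31, 3.35 and 2.11% of the embryo libraries and 19.5, 20.5 and 19.2% of the ovary libraries.

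Most higher genes were already expressed in the ovary and in the younger embryo. The ovary mean was 5 CPM or more for 1358 of the 1441 (94.2%), and the 0-5 hr mean was 5 CPM or more for 1412 (98.0%). The median level of the 1441 genes was 53.0 CPM in ovary, 114.1 CPM in 0-5 hr embryos and 130.3 CPM in 6-11 hr embryos. It was 32.7 CPM in female carcass, 30.6 CPM in male carcass and 43.2 CPM in testis. Among the 6 kinds of sample, the highest mean was in 6-11 hr embryos for 1038 of these genes (72.0%), in 0-5 hr embryos for 183, in testis for 155, in female carcass for 53 and in male carcass for 12. Being called higher than in ovary, these genes could hardly peak there, and the peaks of all genes tested were not counted.

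**Figure D2:**
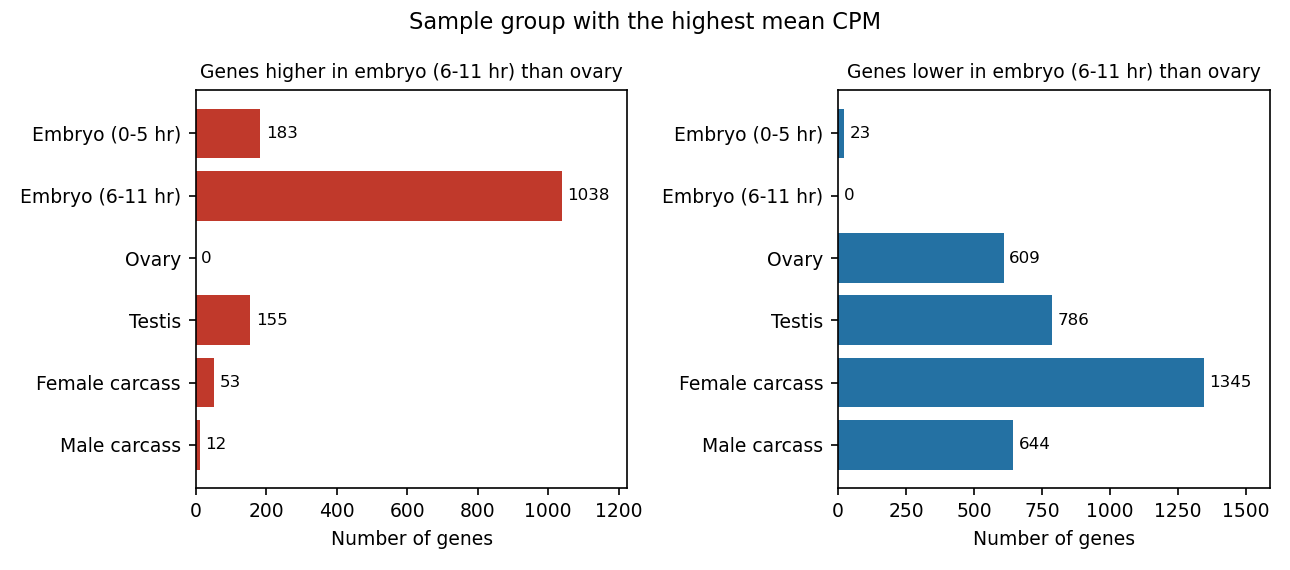
Number of genes (horizontal axis) whose highest mean CPM was in each of the 6 kinds of sample, for the 1441 genes higher in embryo (6-11 hr) than ovary (left) and the 3407 lower genes (right). Of the higher genes, 1038 peaked in 6-11 hr embryos, while only 609 of the lower genes peaked in the ovary and 1345 peaked in the female carcass. The calls themselves keep the higher genes from peaking in the ovary and the lower genes from peaking in 6-11 hr embryos.

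The genes of highest CPM among those that rose showed this pattern. Their CPM are not per length, so their order says nothing of the number of molecules, and none of them carries a gene name in the sources used here. TC010381 stood at 2689, 2660 and 2848 CPM in S4, S5 and S6 and at 733, 718 and 679 CPM in S13, S14 and S15, with 2153 ± 58.6 CPM (SD, n = 3) in 0-5 hr embryos and 198 CPM in female carcass. The groups were far apart, and the log2 change was 1.94 (SE 0.09, limma adjusted p = 4.69e-10). TC009106 stood at 2286, 2249 and 2586 CPM in the embryo libraries and 484, 513 and 483 CPM in the ovary libraries, a log2 change of 2.26 (SE 0.12, limma adjusted p = 1.19e-09). Both genes were more than 5 times lower in either carcass or testis than in the embryo.

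Another 4 genes of high CPM rose by less. TC031639 averaged 4226 ± 240 CPM in the embryo and 1774 ± 103 CPM in ovary (SD, n = 3 each), a log2 change of 1.25. TC005857 averaged 3767 ± 532 and 1390 ± 262 CPM, a change of 1.45, and TC007938 averaged 2335 ± 260 and 766 ± 34.6 CPM, a change of 1.60. TC014606 was the least secure of them, with 1968 and 1967 CPM in S4 and S5 but 2832 CPM in S6, against 943 to 1110 CPM in ovary. Its change was 1.10, and 0.92 without S6, which is below the threshold. With library totals alone TC031639 (0.96) and TC014606 (0.81) also fell below it.

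Of the 13 genes that rose by 3 or more on the log2 scale, 8 had an ovary mean under 1 CPM and 2 had 5 CPM or more. TC005375, the homolog of the fly gene *Larval serum protein 2*, which encodes a storage protein of the larval blood, stood at 78.4, 82.6 and 6.79 CPM in S4, S5 and S6 and at 0.890, 0.911 and 0.757 CPM in the ovary libraries. In 0-5 hr embryos it was at 0, 0.0295 and 0.0285 CPM, at most 1 read per library. S4 and S5 were more than 10 times above S6. S6 was itself above every ovary library, which was a condition for the 8 largest rises. The log2 change from ovary was 4.33 (SE 0.78, limma adjusted p = 0.000168). It was 5.46 without S6, and 2.07 (limma adjusted p = 0.0253) with S6 as the only embryo library, a fit that takes this single library to vary like the others.

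TC003085 stood at 48.8, 53.4 and 8.88 CPM in the embryo libraries and at 0.362, 0.217 and 0.530 CPM in ovary, a log2 change of 4.46 (SE 0.60, limma adjusted p = 9.47e-06). TC011658 stood at 74.7, 76.9 and 7.67 CPM against 1.92, 2.02 and 1.97 CPM, a change of 3.64 (SE 0.59, limma adjusted p = 5.17e-05). TC008400 stood at 35.3, 37.5 and 9.06 CPM against 0.862, 0.846 and 0.530 CPM, a change of 3.79 (SE 0.44, limma adjusted p = 2.03e-06). All 3 genes had the arrangement of TC005375, with S4 and S5 alike and S6 several times lower. Without S6 the changes were 5.26, 4.69 and 4.43. With only the 6 libraries compared in the fit, TC011658 was not called (limma adjusted p = 0.0106). TC011658 and TC008400 reached 5 CPM in no library outside S4 to S6. They passed the filter only because all 3 embryo libraries were high, so their rise was partly a condition of being tested.

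TC013428 and TC013427 carry neighbouring identifiers and had similar profiles. TC013428 stood at 38.0, 38.3 and 14.5 CPM in the embryo libraries against 0.347 to 0.389 CPM in ovary, a log2 change of 4.39 (SE 0.52, limma adjusted p = 2.63e-06). TC013427 stood at 15.1, 15.2 and 7.62 CPM against 0.0651 to 0.114 CPM, a change of 3.59 (SE 0.41, limma adjusted p = 1.83e-06). Outside S4 to S6, neither gene reached 5 CPM in any library. Both passed the filter only through their embryo levels, so their rise was partly a condition of being tested. The 0-5 hr libraries were uneven for both genes. S1, S2 and S3 held 4.43, 0.0295 and 4.58 CPM of TC013428 and 3.03, 0 and 3.16 CPM of TC013427, so S2 had at most 1 read where S1 and S3 had clear signal. TC003085 was at 0 in S2 as well, and at 1.13 and 1.25 CPM in S1 and S3.

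The remaining pair of the 8 largest rises differed from these. TC034894 stood at 27.3, 28.3 and 10.04 CPM in the embryo and 0.362, 0.152 and 0.681 CPM in ovary, a log2 change of 3.92 (SE 0.32, limma adjusted p = 6.21e-08), but its highest mean was in testis at 94.3 CPM. TC031120 was even across the embryo libraries, at 145, 133 and 142 CPM against 12.9, 12.1 and 17.7 CPM in ovary, a change of 3.23 (SE 0.34, limma adjusted p = 7.28e-07). It was also high in 0-5 hr embryos, at 82.2, 86.8 and 92.5 CPM, and at most 1.498 CPM in testis and either carcass on average. The change of TC031120 between the stages was 0.68, which did not pass the test (limma adjusted p = 0.177).

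**Figure D3:**
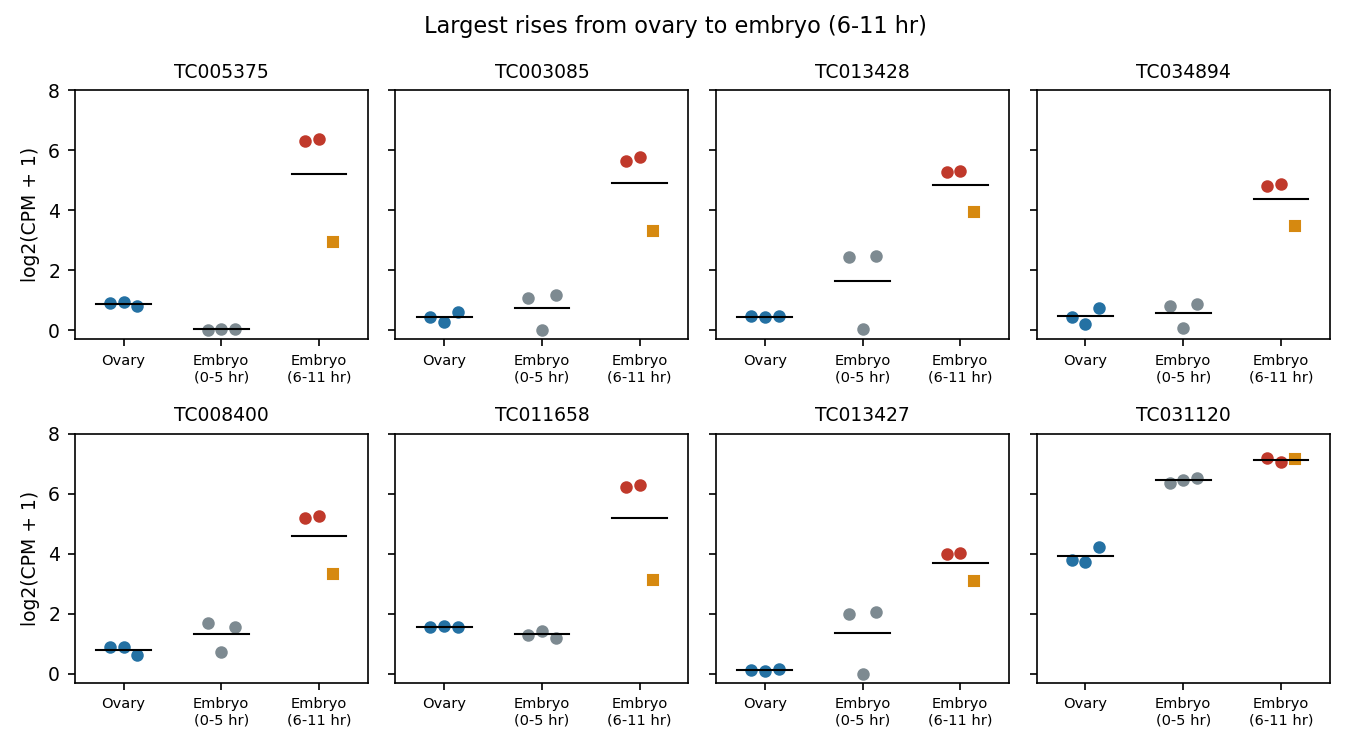
Level of the 8 genes with the largest rise from ovary to embryo (6-11 hr), as log2(CPM + 1), in each library of ovary and of embryos of either stage; bars are group means and the square is library S6. S6 lies below S4 and S5 in every gene but TC031120. The 8 were chosen among genes with every embryo library above every ovary library, so the position of S6 above the ovary was required. TC013428, TC013427, TC011658 and TC008400 also passed the filter only because S4, S5 and S6 each reached 5 CPM.

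The 7 largest rises other than TC031120 also rose between the embryo stages, by 2.36 to 5.19 on the log2 scale (limma adjusted p from 2.22e-06 to 0.00109). This stage comparison shares the 6-11 hr libraries with the comparison with ovary and is not separate evidence. Over all genes it called 247 higher (2.03%) and 256 lower (2.11%) in 6-11 hr than in 0-5 hr embryos. The median stage change was 0.21 among the genes higher than in ovary, 0.20 among the lower genes and 0.14 among all genes.

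Among the higher genes, few were near 0 in both the ovary and the younger embryo. Of the 1441 higher genes, 11 had an ovary mean under 1 CPM, and 7 had both the ovary and the 0-5 hr mean under 1 CPM. The filter limits these counts, since a gene low in all other samples was tested only where S4, S5 and S6 each reached 5 CPM. The share of all genes tested at such levels was not counted. These 7, listed after their values were seen, are TC005375, TC003085, TC034894, TC033670, TC034949, TC009957 and TC008005. TC033670 stood at 16.1, 19.0 and 9.99 CPM in the embryo libraries and at 0.723, 0.499 and 0.795 CPM in ovary, a log2 change of 3.22 (SE 0.24, limma adjusted p = 2.42e-08), and at most 0.546 CPM on average in the testis and carcasses. TC034949 stood at 13.6, 13.2 and 6.32 CPM in the embryo libraries against 0.0868 to 0.643 CPM in ovary, and TC009957 at 16.6, 21.2 and 2.09 CPM against 0.416 to 0.456 CPM. TC008005 was the weakest, at 7.19, 8.97 and 0.883 CPM against 0.152 to 0.341 CPM in ovary. With S6 as the only embryo library its change was 0.63 (limma adjusted p = 0.116), where it was 2.14 with all 3. With only the 6 libraries compared in the fit, neither TC009957 (limma adjusted p = 0.0108) nor TC008005 (limma adjusted p = 0.0168) was called, and TC009957 was also not called with S6 as the only embryo library (limma adjusted p = 0.0128).

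Most lower genes had their highest level in an adult sample other than the ovary. Their median level was 12.4 CPM in ovary, 0.819 CPM in 0-5 hr embryos and 1.59 CPM in 6-11 hr embryos, but 24.2 CPM in female carcass, 26.1 CPM in male carcass and 14.5 CPM in testis. Of the 3407, 1345 peaked in female carcass (39.5%), 786 in testis (23.1%), 644 in male carcass (18.9%), 609 in ovary (17.9%) and 23 in 0-5 hr embryos. The 6-11 hr mean was under 1 CPM for 1327 (38.9%) and 5 CPM or more for 861. Neither the peaks nor these levels were counted over all genes tested. Among the 230 genes that fell by 4 or more, 95 (41.3%) had their highest mean in the ovary.

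The markers of other tissues moved with the lower genes. Of all genes tested, 28% were lower and 11.9% were higher. Of the 278 carcass-rich genes, 169 were lower in the embryo (60.8%), 1 was higher and 108 were not called. Their median change was -1.63, against -0.11 over all genes. Of 680 testis-rich genes, set by the same 16-fold margin of testis over 0-5 hr embryos and female carcass, 669 were tested, 278 were lower (41.6%) and 12 were higher, with a median change of -1.04. Their summed level was 1775 to 1979 CPM in the embryo and 3337 to 6087 CPM in the ovary, and 9 of them were at 0 in every embryo library. Both lists were defined partly by low levels in 0-5 hr embryos. The carcass-rich genes, 278 of the 12152 genes tested, were 4.96% of the lower genes. Outside both lists lay 2960 lower and 1428 higher genes. The part of adult body tissue adhering to the dissected ovaries in these falls was not tested.

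The 8 largest falls were of a distinct kind, being high in the ovary, far lower on average in every other kind of sample and close to 0 in both embryo stages. Single libraries came closer, with TC007776 at 84.7 CPM in female carcass library S7 and 144 CPM in ovary library S15. TC003110 stood at 3575, 3586 and 2140 CPM in S13, S14 and S15 and at 4.50, 3.95 and 0.697 CPM in S4, S5 and S6, with at most 1.74 CPM in any library of 0-5 hr embryos. Its female carcass mean of 94.8 CPM was uneven, at 146, 125 and 13.8 CPM in S7, S8 and S9. TC003110 fell by 9.72 on the log2 scale (SE 0.75, limma adjusted p = 6.68e-08). TC015344 stood at 2607, 1718 and 3194 CPM in ovary and 3.70, 3.71 and 0.604 CPM in the embryo, and fell by 9.53 (SE 0.75, limma adjusted p = 7.83e-08). Neither gene carries a name in the sources used here.

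TC008930 stood at 1777, 1364 and 2470 CPM in ovary and 2.97, 3.14 and 0.558 CPM in the embryo, and fell by 9.27 (SE 0.71, limma adjusted p = 5.54e-08). TC031368 stood at 1567, 1002 and 825 CPM and at 1.54, 2.02 and 0.372 CPM, and fell by 8.96 (SE 0.57, limma adjusted p = 7.59e-09). In both genes every ovary library was above every embryo library, as the choice of the largest falls required, and S6 held the least. The other 4 were less even across the ovary libraries. TC007776 stood at 874 and 841 CPM in S13 and S14 but 144 CPM in S15, and TC032318 at 765, 883 and 233 CPM. Against embryo levels of 0.139 to 1.42 CPM and 0.139 to 1.33 CPM, the log2 changes were -8.01 (SE 0.92, limma adjusted p = 2.76e-06) and -8.34 (SE 0.81, limma adjusted p = 5.24e-07). Without S15 the changes were -8.87 and -8.94.

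TC005384 stood at 749, 747 and 370 CPM in ovary and 0.279 to 1.79 CPM in the embryo, a log2 change of -8.15. TC014976 stood at 491, 374 and 221 CPM in ovary and at 0.628, 0.708 and 0 CPM in the embryo, a change of -7.94. S15 was the lowest ovary library in 6 of the 8 genes and the highest in TC015344 and TC008930. None of the 8 passed the test between the embryo stages.

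**Figure D4:**
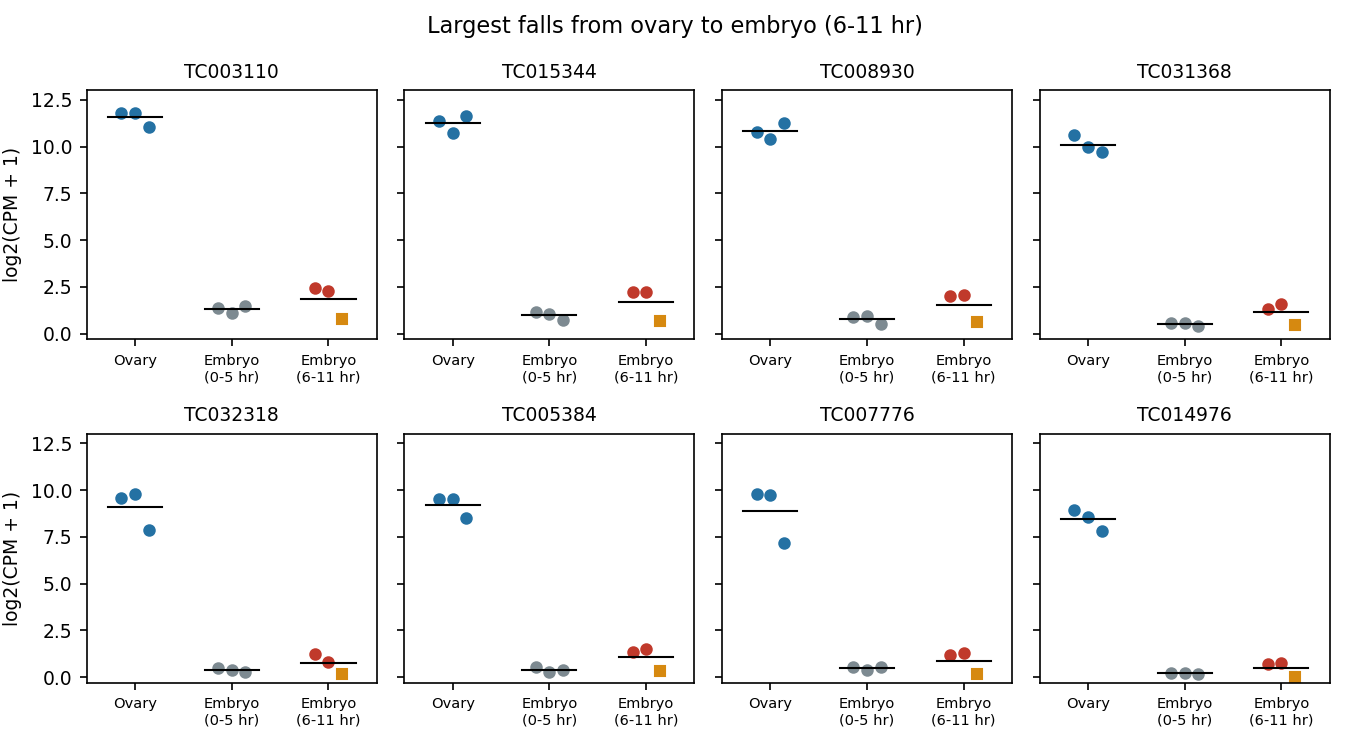
Level of the 8 genes with the largest fall from ovary to embryo (6-11 hr), as log2(CPM + 1), in each library of ovary and of embryos of either stage; bars are group means and the square is library S6. All 8 are near the floor in both embryo stages, and in each gene S6 is the lowest of the 6-11 hr libraries.

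S6 was lower than both S4 and S5 in 78.0% of the 3407 lower genes and in 24.8% of the 1441 higher genes, against 51.7% of all genes tested. S6 took part in these calls, and a low S6 favours a lower call and a high S6 a higher call. The contrast between the called sets is therefore partly built in. S6 was below the mean of S4 and S5 by 1 log2 unit or more in 837 of the 12152 genes tested. Among them were 530 of the 3407 lower genes and 18 of the 1441 higher genes. S6 was above that mean by as much in 12 genes. S6 also carried the least of the carcass-rich genes. Without S6 there were 1359 higher and 3059 lower genes, so the counts did not rest on this library. The part of embryo age or of adult body tissue in the position of S6 was not tested.

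A further 2 lower genes were named for their high CPM in ovary and were higher still in female carcass. TC030701 stood at 3268, 3376 and 5001 CPM in ovary and 374, 363 and 37.8 CPM in the embryo, with 9274 CPM in female carcass and 7741 CPM in male carcass. The log2 change was -4.45 (SE 0.72, limma adjusted p = 7.49e-05) and -3.37 without S6, and it was not called with only the 6 libraries compared in the fit (limma adjusted p = 0.0106). In 0-5 hr embryos it was at 11.8, 44.7 and 8.54 CPM, so S4 and S5 stood well above that stage and S6 was within its range. TC034351 was steadier, at 2657, 2955 and 3340 CPM in ovary, 297, 287 and 224 CPM in the embryo and 222, 205 and 230 CPM in 0-5 hr embryos. It fell by 3.47 (SE 0.14, limma adjusted p = 2.34e-10).

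The 4 lower genes that kept the highest CPM in the embryo fell by little more than the threshold. TC003367 stood at 522, 532 and 359 CPM in the embryo and 1270, 938 and 983 CPM in ovary, a log2 change of -1.18. TC005395 averaged 397 ± 123 and 968 ± 38.7 CPM (SD, n = 3 each), a change of -1.34, and TC011204 averaged 360 ± 47.9 and 802 ± 36.3 CPM, a change of -1.16. TC015013 averaged 336 ± 100 and 787 ± 89.2 CPM, a change of -1.27. Without S6 the changes of TC003367 and TC015013 were -0.998 and -0.996, just below 1 in size, and neither was then called.

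Transcripts present in both the ovary and the fresh egg but low by 6-11 hr were a smaller group. Of the 3407 lower genes, 1837 were already under 1 CPM in 0-5 hr embryos, among them 737 with 5 CPM or more in ovary and under 1 CPM at 6-11 hr. Only 694 were at 5 CPM or more in 0-5 hr embryos. Counts at these levels over all genes tested were not made. A level of 5 CPM or more in ovary and both embryo stages was found for 644 of them, and 50 reached it in ovary and 0-5 hr embryos but lay between 1 and 5 CPM at 6-11 hr.

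The 4 lower genes with the largest fall between the stages, named after their values were seen, were all still at 5 CPM or more at 6-11 hr. TC009494 stood at 456, 337 and 381 CPM in ovary, at 664, 577 and 684 CPM in 0-5 hr embryos and at 103, 104 and 99.6 CPM in 6-11 hr embryos. It fell by 1.92 from ovary (SE 0.12, limma adjusted p = 4.9e-09) and by 2.64 between the stages (limma adjusted p = 1.42e-08). TC001195 stood at 24.6, 25.0 and 27.4 CPM in ovary, 73.5, 64.4 and 72.3 CPM at 0-5 hr and 9.46, 10.02 and 8.13 CPM at 6-11 hr. The 3 kinds of sample did not overlap, and the change from ovary was -1.39 (SE 0.25, limma adjusted p = 0.000168). TC030657 averaged 75.0, 93.0 and 16.9 CPM in ovary, 0-5 hr and 6-11 hr embryos, and gene13417, a gene model with no TC identifier, averaged 41.2, 43.0 and 7.64 CPM. Their changes from ovary were -2.15 and -2.36.

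Genes with a named fly homolog or role in the source paper, 22 in all, were called in part. Of these, 4 were higher (18.2%), 6 were lower (27.3%) and 12 were not called, where 11.9% and 28% of all genes were higher and lower. The paper chose many of them on these same libraries, so their directions are not independent of the data.

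**Figure D5:**
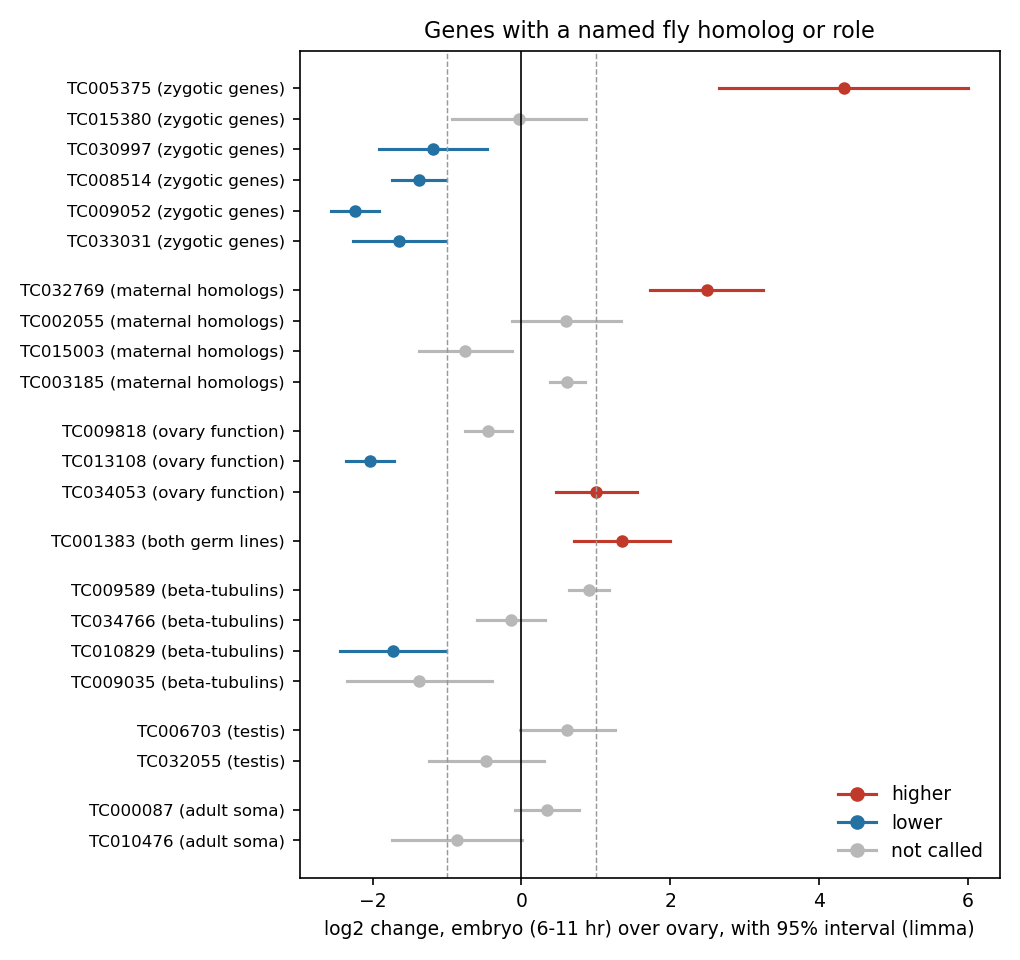
Log2 change from ovary to embryo (6-11 hr) of the 22 genes with a named fly homolog or role (points, n = 3 libraries a group) with 95% intervals from limma, grouped by role; dashed lines mark a change of 1 either way. TC005375 and TC032769 lie furthest to the right at 4.33 and 2.49, and 4 of the 6 genes named as zygotic lie to the left of 0 as called genes.

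Of 6 genes that the source paper names as zygotic, TC005375 was higher in the embryo than in the ovary, 4 were lower and 1 was not called. TC005375 was named for its rise at 6-11 hr, and the other 5 as early zygotic genes. The paper took its early zygotic genes by their increase over 0-5 hr embryos, which is not the comparison with ovary made here. It also placed these 5 in a cluster described as expressed at both embryo stages but not in its other samples. It reported them as raised at 6-11 hr. Between the stages, the log2 change was 2.16 for TC015380 (limma adjusted p = 0.0024) and 1.27 for TC030997 (limma adjusted p = 0.0156). It was 0.21 for TC008514, 0.0041 for TC009052 and 0.30 for TC033031 (limma adjusted p from 0.437 to 0.996). TC008514 stood at 29.6, 31.0 and 25.7 CPM in the embryo and 80.5, 66.3 and 82.5 CPM in ovary, and fell by 1.38 (SE 0.17, limma adjusted p = 3.92e-06). TC009052 stood at 2.79, 4.08 and 2.79 CPM and at 19.1, 16.7 and 20.2 CPM, and fell by 2.23 (SE 0.15, limma adjusted p = 9.76e-09). Both were much higher in adult tissues, TC008514 at 539 CPM in female carcass and 577 CPM in testis and TC009052 at 83.3 and 107 CPM.

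TC033031 stood at 0.488, 0.776 and 0.0465 CPM in the embryo, the last being 1 read, and at 3.42, 3.06 and 3.75 CPM in ovary. Its change was -1.65 (SE 0.29, limma adjusted p = 0.000111), and -0.63 with 5 added to each CPM. TC030997 stood at 7.71, 6.78 and 1.53 CPM and at 10.9, 12.0 and 12.1 CPM, a change of -1.19 (SE 0.34, limma adjusted p = 0.00529). Its call was lost without S6 (-0.62), and without S13, S14 or S15, where the limma adjusted p was 0.0117 to 0.0174. TC015380 stood at 7.12, 8.16 and 1.39 CPM in the embryo and 3.45, 5.66 and 5.41 CPM in ovary, so that S4 and S5 were above the ovary libraries and S6 below them. Its change was -0.03 (95% interval -0.93 to 0.87), and 0.59 without S6.

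Of 4 homologs of maternal genes, TC032769, or *caudal*, was higher in the embryo. *caudal* encodes a homeodomain transcription factor that patterns the posterior of insect embryos. It stood at 151, 151 and 118 CPM in S4, S5 and S6 and at 27.6, 22.0 and 22.6 CPM in ovary, and its level in 0-5 hr embryos was 128 ± 4.16 CPM (SD, n = 3). The lowest embryo library was more than 4 times the highest ovary library, and the log2 change was 2.49 (SE 0.35, limma adjusted p = 1.48e-05). The stage change was 0.12 (limma adjusted p = 0.886).

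The other 3 maternal homologs were not called. TC003185, or *myd88*, which in the fly acts in the Toll pathway, stood at 79.5, 77.8 and 83.4 CPM in the embryo and 54.8, 48.9 and 52.1 CPM in ovary. The groups did not overlap and the adjusted p of limma was 0.000136, but the change was 0.62 (95% interval 0.38 to 0.85), under 1. TC002055, whose fly homolog is expressed in oogenesis and placed in the egg, had a change of 0.60 (limma adjusted p = 0.124), at 23.1, 22.6 and 34.1 CPM against 15.5 to 18.0 CPM, and 560 CPM in testis. TC015003, the homolog of *mei-P26*, a fly germ-line regulator, stood at 5.69, 6.00 and 2.28 CPM against 7.27 to 8.68 CPM, a change of -0.75 (limma adjusted p = 0.0304).

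The genes tied to ovary function differed among themselves. TC013108, the homolog of *quail*, which encodes an actin-bundling protein of fly nurse cells, stood at 7.15, 6.75 and 4.65 CPM in the embryo and 27.6, 28.4 and 28.1 CPM in ovary, and fell by 2.03 (SE 0.15, limma adjusted p = 2.42e-08). It was higher still in female carcass, at 60.5 CPM. TC009818, the homolog of *loco*, a regulator of G protein signalling, averaged 66.7 ± 14.9 CPM in the embryo and 89.8 ± 8.31 CPM in ovary (SD, n = 3 each). Its change of -0.45 (limma adjusted p = 0.0133) was not called, and its level was 132 CPM in 0-5 hr embryos and 197 CPM in female carcass.

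TC034053, the homolog of meiosis arrest female protein 1, was more abundant in the embryo, at 1101, 1065 and 850 CPM against 455, 549 and 493 CPM in ovary and 1250 CPM in 0-5 hr embryos. Carcasses and testis held 32.5 to 51.6 CPM on average, so the gene did mark the ovary and embryo libraries. The log2 change of 1.00 (SE 0.26, limma adjusted p = 0.00239) was at the threshold, and the call was lost without S4, S5, S13 or S15 (0.93 to 1.00). It was also lost with library totals alone (0.71, limma adjusted p = 0.0363) and with 5 added to each CPM (0.999). Without S6 and S15 together, the change was 1.11 but the limma adjusted p was 0.0104. TC001383, the homolog of a fly gene of the anaphase-promoting complex, which drives anaphase, stood at 390, 384 and 545 CPM in the embryo and 168, 175 and 165 CPM in ovary, a change of 1.35 (SE 0.30, limma adjusted p = 0.000943). Its level was 464 CPM in 0-5 hr embryos, 143 CPM in testis and 9.89 CPM in female carcass.

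Beta-tubulins, the subunits of microtubules, gave 1 lower gene and 3 that were not called. Reads can be shared between such similar genes, so their separate values are uncertain. TC009589 stood at 1839, 1948 and 1802 CPM in the embryo and 946, 1107 and 923 CPM in ovary, with a change of 0.91 (limma adjusted p = 1.11e-05) that was 1.02 with RLE factors and then called. TC034766 averaged 41.2 ± 12.0 and 44.2 ± 2.94 CPM (SD, n = 3 each), a change of -0.14 (limma adjusted p = 0.555) that turned to 0.12 without S6. TC010829 was low in both, at 0.593, 0.675 and 0.186 CPM against 6.54, 1.87 and 4.31 CPM in ovary, with a change of -1.73 (SE 0.33, limma adjusted p = 0.000271), and -0.72 with 5 added to each CPM. TC009035, the homolog of the fly testis tubulin *β-Tub85D*, stood at 1.71, 2.90 and 1.49 CPM against 8.90, 2.32 and 12.9 CPM. Its groups overlapped through S14, and the change was -1.37 (limma adjusted p = 0.0136), or -1.98 (limma adjusted p = 0.000408) without S14. With all libraries it was called as lower with library totals alone (-1.64, limma adjusted p = 0.00519) and by edgeR's quasi-likelihood test (-1.96, adjusted p = 0.00607), edgeR's likelihood ratio test (-1.97, adjusted p = 0.000833) and DESeq2 (-1.89, adjusted p = 0.000673). TC009035 was at 4569 CPM in testis.

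Genes named for testis or adult soma were low in both groups relative to their home tissue, and none of the 4 was called. TC006703, the homolog of the DNA repair gene *Rad50*, averaged 17.7 ± 0.844 CPM in the embryo and 11.3 ± 1.89 CPM in ovary (SD, n = 3 each), against 932 CPM in testis. TC032055 averaged 0.259 ± 0.173 and 0.786 ± 0.522 CPM, against 988 CPM in testis. TC010476, the homolog of *flightin*, a protein of insect flight muscle, stood at 2.34, 2.29 and 0.279 CPM in the embryo and 3.11, 2.62 and 4.73 CPM in ovary, against 802 CPM in female carcass. TC000087, the homolog of *henna*, a fly gene of eye pigment synthesis, stood at 29.3, 30.0 and 33.6 CPM and at 24.7, 24.1 and 23.6 CPM, against 256 CPM in female carcass. Their changes were 0.62, -0.47, -0.87 and 0.34, with limma adjusted p from 0.066 to 0.245.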

How the data were processed

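Members and gene lists were chosen with earlier results of these data known. According to the study's methods, reads were aligned with HISAT2 2.0.5 to the Tcas5.2 genome and counted per gene model with BEDTools, and gene models at 5 CPM or more in at least 3 samples were kept. The deposited signal values are the authors' CPM after TMM scaling with edgeR. Divided by the value of 1 read, 100% of 209134 values were whole to within 0.01 read. The library kit does not mark strand, so overlapping genes can share reads.

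From these values, log2(CPM + 1) of all 17 libraries was fitted with 1 mean per group in limma 3.58.1 (R 4.3.3; trended, robust moderation), and p-values were adjusted over 12152 genes. The other 150 gene models were not tested. Recovered reads were used only in alternatives, with edgeR 4.0.16 (1520 higher and 3814 lower genes, quasi-likelihood test) and DESeq2 1.42.0. Alternatives changed the pseudocount, filter, libraries, scaling, test and thresholds. The 8 largest changes each way with groups apart, the 4 called genes of highest CPM each way in each group and the paper's genes were named. Precision is limited by 3 libraries per group, and intervals do not cover differences between collections. Only 1 of 12282 TC identifiers matched the RefSeq table, so gene lists by symbol and sequences were not analysed here. Python 3.11.15, pandas 2.3.3 and matplotlib 3.10.9 made summaries and figures.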

Additional observations from a re-analysis of the deposited data

Results flagged for a closer look

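For 9 of the 49 genes named by rule the change from ovary differed between the 2 embryo stages. This was tested as the difference between 6-11 hr and 0-5 hr embryos in the same limma model, at the same thresholds. Over all genes tested, it called 2.03% higher and 2.11% lower at 6-11 hr. Most of the 9 were among the largest rises, which were chosen on the same 6-11 hr libraries. The count is therefore not a separate result about the named genes. Genes named only after their values were seen were left out. Each of them also passed, but they were chosen by a low 0-5 hr level or by their fall between the stages. Their passing was therefore close to given and is not evidence. Among these, the difference was 3.71 for TC033670 (limma adjusted p = 3.3e-07) and -2.64 for TC009494 (limma adjusted p = 1.42e-08). The log2 difference between the stages was 5.19 for TC005375 (limma adjusted p = 0.000375), where the change from ovary was 4.33 at 6-11 hr and -0.86 at 0-5 hr. It was 4.15 for TC003085 (limma adjusted p = 0.000244), with changes from ovary of 4.46 and 0.31. It was 3.90 for TC011658 (limma adjusted p = 0.000321), with changes of 3.64 and -0.26. For TC034894 it was 3.81 (limma adjusted p = 2.22e-06), with changes of 3.92 and 0.12.

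TC030701 was lower than in ovary at both stages, by -4.45 at 6-11 hr and -7.75 at 0-5 hr, a difference of 3.30 (limma adjusted p = 0.00576). The difference was 3.27 for TC008400 (limma adjusted p = 0.00013), with changes from ovary of 3.79 and 0.53, and 3.19 for TC013428 (limma adjusted p = 0.000656), with changes of 4.39 and 1.20. It was 2.36 for TC013427 (limma adjusted p = 0.00109), with changes of 3.59 and 1.23. For TC015380 it was 2.16 (limma adjusted p = 0.0024), and this gene was lower than in ovary at 0-5 hr by -2.19 and at -0.03 at 6-11 hr. In each of the 9, S6 stood closer than S4 and S5 to the 0-5 hr level.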

How the results depend on the processing

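The count of higher genes fell to 643 with library totals alone and to 91 at a log2 change of 2. The count of lower genes fell to 2099 with 5 added to each CPM and to 1665 at a log2 change of 2. Under the other alternatives both counts were within 1.5 times the reported ones. Leaving out each library in turn gave 1359 to 1504 higher and 3059 to 3422 lower genes, and a filter on the 6 libraries compared gave 1432 and 2490. Alternatives chosen after seeing the data gave 1275 and 2849 without S6 and S15, and 1663 and 3437 with S6 as the only embryo library. The direction of TC015380 turned with 5 added (0.040), RLE factors (0.050), edgeR's quasi-likelihood (0.21) and likelihood ratio (0.20) tests, DESeq2 (0.28) and S6 and S15 left out (0.66), and ran from -0.38 to 0.59 with 1 library left out. TC034766 ran from -0.28 to 0.12 with 1 library left out and was 0.17 without S6 and S15. An alternative that gave a gene no adjusted p was not counted for that gene, as with DESeq2 for TC005384 and TC007776. Of 45 called named genes, 0 reversed and 14 lost the call under at least 1 alternative. The cause of these changes was not tested. No paired analysis was possible because the embryo and ovary libraries share no replicate numbers in the labels. The 3 libraries per group and the value of 1 read limit what can be said of genes under 1 CPM.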

Other observations

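A set of 8 gene models, chosen after the values were seen, was far higher in ovary library S15 than in S13 and S14. They are TC034956, TC031913, TC031914, TC034965, TC032713, TC034989, TC004339 and TC031953, each at 1000 CPM or more in S15 and at least 8-fold over both other ovary libraries. TC034989 stood at 15168 CPM in S15 against 341 and 321 CPM in S13 and S14, and TC034956 at 10750 CPM against 154 and 208 CPM. Their sum was 53463 CPM in S15, 1130 CPM in S13 and 1193 CPM in S14. Single libraries of other groups were also raised, with sums of 7151 CPM in embryo library S5 against 1654 and 1078 CPM in S4 and S6, and of 19233 CPM in female carcass library S9 against 5667 and 3488 CPM in S7 and S8. None of the 8 was called between embryo and ovary.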
